A study of Danio rerio with 2 samples.

Results

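The genes of tubulins and of the enzymes and partners that fold, modify, cut or sequester tubulin were read in the adult zebrafish forebrain choroid plexus, the ciliated and secretory epithelium over the forebrain ventricle together with its stroma. Members were the genes whose symbol in the authors' series table begins with a tubulin family stem (tuba, tubb, tubg, tubd or tube with a number), with ttll, agbl or stmn and a number, or with katn, or is tbca to tbce, atat1, hdac6, vash1, vash2 or svbp. This rule found 58 of the 21019 genes of that table, under 55 symbols when case is ignored, and it used no measured value. The sample files held 25432 genes. Both libraries came from untreated adults, AB and nacre (mitfa-/-, without the pigment cells that mitfa specifies), 6 to 8 months of age and over 3 cm in length. Each library was made from a pool of 12 to 19 plexuses from which the pineal gland had been removed. How AB and nacre fish were divided between the pools is not stated in these sources. The titles call the libraries batch 1 and batch 2 and do not say how the batches differ. They are replicates 1 and 2 here, and every difference between them is also one between batches. With 1 group of 2 libraries there was no comparison between conditions and no test, and what follows are levels with their spread.

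Microtubules are polymers of alpha and beta tubulin dimers. The same dimers build the cytoplasmic tracks of the epithelial cell, the mitotic spindle and the axoneme of each cilium, the doublet microtubules on which beating and intraflagellar transport run. New tubulin is folded by a chaperonin and by cofactors that join alpha to beta. Once in a microtubule it is marked by acetylation inside the tube and, on the tails outside, by loss of the last tyrosine and by added chains of glutamate or glycine, marks that are dense on cilia and on axons.

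Levels are in TPM, a unit that divides reads by transcript length and is scaled to the same total in each library, so that levels can be compared between genes. Values after ± are SDs of 2 libraries. Expected counts are the reads that RSEM assigned to each gene, and their totals were 11712489 (replicate 1) and 13446356 (replicate 2). Of 10 epithelial markers of the labelled tissue, 7 were at 10 TPM or above in both libraries. Among these, otx2b was at 273 and 331 TPM and clic6 at 1426 and 1513 TPM. The marker kcnj13 was at 3.31 and 1.35 TPM. A further 2 markers of the mammalian tissue, ttr and kl, were below 1 TPM in both libraries. Of 8 motile cilia markers, 7 were at 10 TPM or above in both libraries, and dnai2a was at 0.15 and 0.03 TPM. Of all genes in the series table, 31.9% reached 10 TPM in both libraries. The marker lists were chosen with earlier results of these data known, so these counts are not a check of the tissue. The 9 pineal and photoreceptor markers summed to 3020 TPM in replicate 1 and 42.1 TPM in replicate 2, and all 9 were higher in replicate 1. The 10 neuron markers summed to 75.0 and 41.9 TPM, of which map2 made 29.4 and 31.8 TPM, and the other 9 summed to 45.6 and 10.1 TPM. In whole tissue, fewer cells of a type and less RNA per cell cannot be told apart.

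Of the 58 members, 47 (81.0%) reached 1 TPM in both libraries, beside 66.1% of all genes in the series table. At 10 TPM the members numbered 27 (46.6%, beside 31.9% of all genes), and at 100 TPM they numbered 5 (8.62%, beside 3.78%). These 5 were the alpha tubulins tuba8l4 and tuba1a, the beta tubulins tubb4b and TUBB4B, and the folding cofactor tbca. The median of the members' mean TPM was 8.46, beside 4.88 for the genes of the table. A mean of 1 to 10 TPM was found for 21 members and a mean below 1 TPM for 10, of which 3 were listed at 0 in 1 library.

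**Figure D1:**
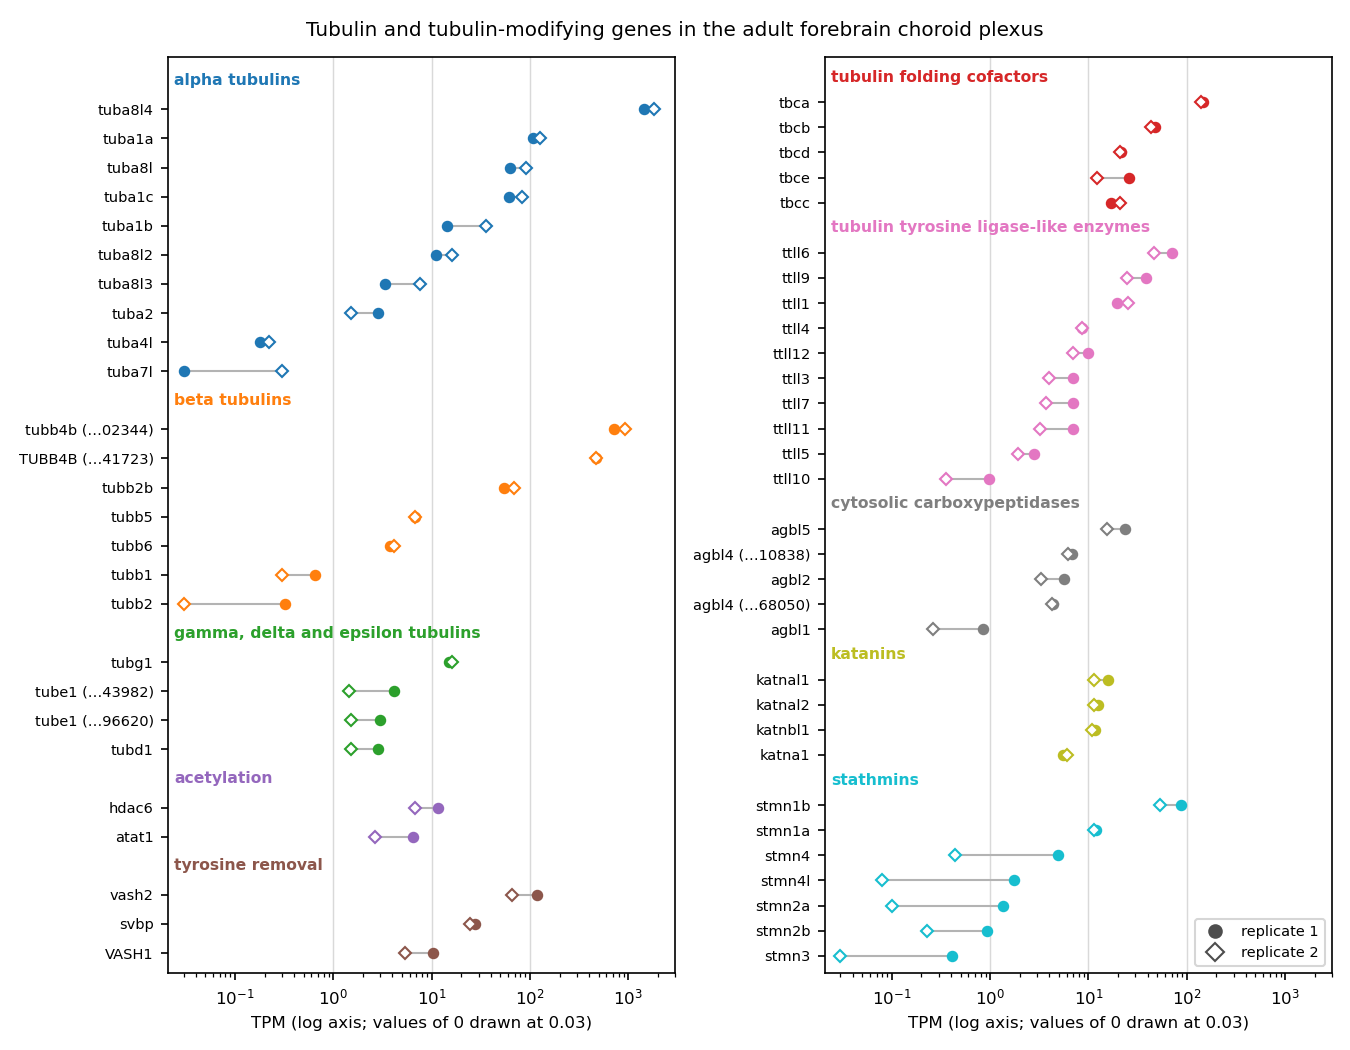
TPM on a log axis for 57 of the 58 members in replicate 1 (filled circles) and replicate 2 (open diamonds), grouped by role and joined by a line. Alpha and beta tubulins span from below 1 TPM to 1845 TPM, the value of tuba8l4 in replicate 2. The 5 lowest stathmins have long lines with the filled circle to the right. Where a symbol stands for 2 genes, the last digits of the gene identifier are added.

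Most alpha tubulin transcripts came from 1 gene. The gene tuba8l4 (ENSDARG00000006260) stood at 1456 TPM in replicate 1 and 1845 TPM in replicate 2, a mean of 1651 ± 275 TPM, rank 106 among all genes. It held 84.7% and 83.6% of the summed TPM of the 10 alpha tubulin genes. Its level was 13.4 and 14.6 times that of tuba1a (ENSDARG00000001889), the next in order, at 108.6 and 126.5 TPM. The gene thus led by far in both libraries, and its share differed little between them (84.1 ± 0.728%).

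Behind these, tuba8l was at 62.6 and 90.7 TPM and tuba1c at 61.1 and 82.6 TPM. The RefSeq table of assembly GRCz12tu gives tuba8l as a synonym of tuba5. These neighbours in the order overlapped between libraries, although tuba8l was the higher in each. The gene tuba1b was at 14.3 and 35.9 TPM, and tuba8l2 at 11.0 and 16.0 TPM, again with overlapping values. Below 10 TPM lay tuba8l3 (3.37 and 7.56 TPM) and tuba2 (2.83 and 1.53 TPM). The lowest were tuba4l (0.18 and 0.22 TPM) and tuba7l, which had 0 reads in replicate 1, where 3 reads would be 0.222 TPM, and 0.3 TPM in replicate 2. Summed over all 10 genes, alpha tubulin stood at 1720 and 2207 TPM.

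The genes tuba1c, tuba1a and tuba1b follow each other without another protein-coding gene between them in assembly GRCz12tu. Together they summed to 184 and 245 TPM, or 10.9 ± 0.287% of alpha tubulin. Their reads could not always be told apart. Expected counts were not whole for 5 of the 10 alpha tubulins (tuba8l4, tuba1a, tuba1b, tuba1c and tuba8l3), which happens when RSEM divides a read between genes that match it equally well. Over all members, 7 (12.1%) had counts that were not whole, beside 6.60% of the genes of the table. The level of each of the 5 is therefore an estimate that depends on that division.

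Most beta tubulin transcripts came from 2 genes that bear the same symbol in different case. The gene tubb4b (ENSDARG00000002344), the beta tubulin named for the isotype that is abundant in ciliated tissues of mammals, was at 720 and 931 TPM, a mean of 826 ± 149 TPM. The gene listed as TUBB4B in capitals (ENSDARG00000041723) was at 465 and 475 TPM, a mean of 470 ± 6.60 TPM. Together they held 94.7% of beta tubulin TPM in each library, with 57.5% and 62.7% for tubb4b and 37.2% and 32.0% for TUBB4B. The first was higher than the second in both libraries, by a ratio of 1.55 in replicate 1 and 1.96 in replicate 2. All 7 beta tubulins had whole counts in both libraries.

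The third beta tubulin, tubb2b, was at 54.9 and 68.3 TPM. It was followed by tubb5 at 6.80 and 6.74 TPM and tubb6 at 3.79 and 4.13 TPM. The gene tubb1 was at 0.65 and 0.30 TPM, and tubb2 at 0.32 TPM from 4 reads in replicate 1 and at 0 reads in replicate 2, where 3 reads would be 0.195 TPM. Each of the 5 highest beta tubulins exceeded the next in both libraries without overlap. Tubulin also builds the mitotic spindle, so the 7 cell cycle markers are given beside tubb2b. They summed to 109 and 87.5 TPM, of which pcna made 94.1 and 72.0 TPM, and none was at 0. The division markers cdk1 and plk1 were at 4.97 and 7.32 TPM and at 4.13 and 2.21 TPM. Those of ccnb1 and aurkb were at 1.16 and 1.83 TPM and at 1.70 and 1.17 TPM. Transcripts of top2a were at 2.21 and 2.13 TPM, and those of mki67 at 0.88 TPM in both libraries. The part of dividing cells in the level of tubb2b was not tested.

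Beta tubulin summed to 1252 and 1485 TPM over 7 genes. Alpha exceeded beta in each library, with a ratio of 1.37 in replicate 1 and 1.49 in replicate 2. Both families took 0.297% and 0.369% of all TPM. The leading alpha, tuba8l4, stood at 2.02 and 1.98 times the leading beta, tubb4b. The reference table adds 2 tubulin names that the authors' table gives under other symbols. Of these, tubb4bl was at 1.43 and 1.93 TPM and tuba8l5, the gene beside tuba8l3, at 0 and 0.08 TPM.

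**Figure D2:**
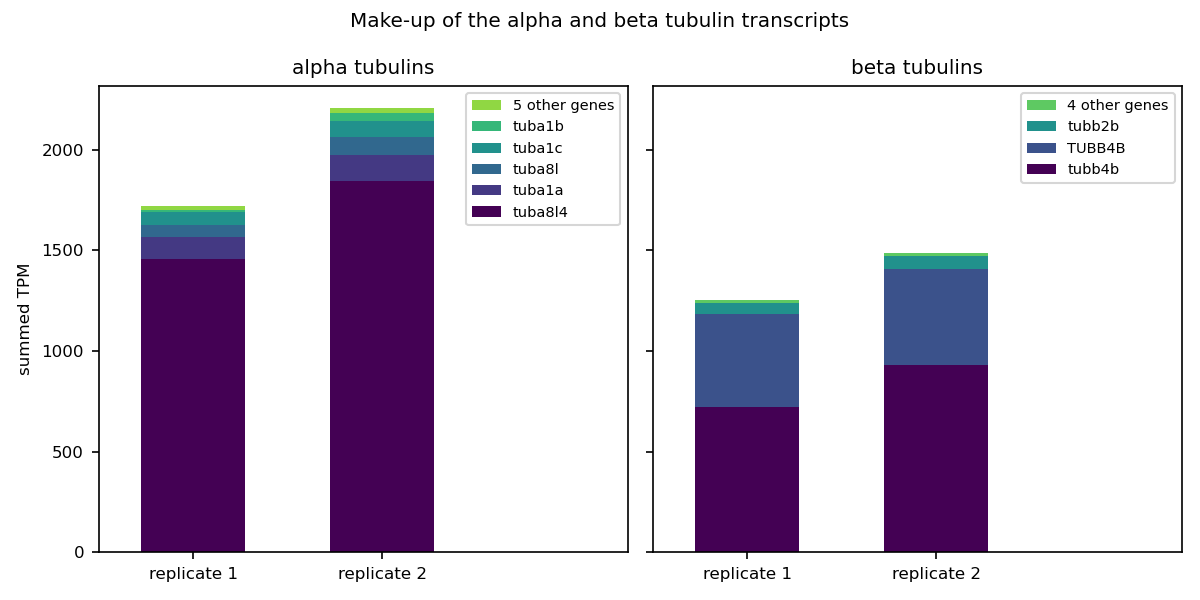
Summed TPM of the alpha tubulins (left) and beta tubulins (right) in each library, as stacked bars with a segment for each named gene and the remaining genes pooled. In both libraries tuba8l4 fills over 80% of the alpha bar, and tubb4b and TUBB4B fill 94.7% of the beta bar.

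Of the minor tubulins, gamma tubulin, which nucleates microtubules at the centrosome and basal body, was the highest. Its gene tubg1 was at 15.0 and 16.0 TPM. Delta and epsilon tubulin, which centrioles need to form triplet microtubules, were lower. The gene tubd1 was at 2.85 and 1.53 TPM, and the 2 entries named tube1 were at 4.11 and 1.46 TPM (ENSDARG00000043982) and at 2.96 and 1.50 TPM (ENSDARG00000096620). Counts of both tube1 entries were not whole, so each had reads divided with other genes. The counts do not show which genes shared them. The 2 entries were nearly level in TPM in replicate 2. By expected counts the first was the higher in both libraries, at 78.0 and 34.8 beside 46.1 and 29.2. Of 7 genes matched for 8 listed symbols of the gamma tubulin ring complex and its partners, all were at 1 TPM or above in both libraries, and 2 were at 10 or above. They were led by MZT1 (25.7 and 15.6 TPM), mzt2b (16.0 and 16.9 TPM) and nedd1 (10.7 and 8.59 TPM). Gamma tubulin itself thus lay in the range of its complex.

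The tubulin folding cofactors were all above 10 TPM in both libraries. The highest was tbca, whose product holds beta tubulin, at 146.7 and 141.2 TPM. It was followed by tbcb, which holds alpha tubulin, at 47.8 and 43.0 TPM. The genes tbcd, tbce and tbcc, whose products join the chains into a dimer, were at 21.5 and 21.1, at 25.7 and 12.2, and at 16.9 and 20.7 TPM. The order among these last 3 was not the same in each library. The TPM of tbce differed more than its reads, which numbered 252 and 218, because its effective length was 1096 bases in replicate 1 and 1596 in replicate 2. All 16 entries of the chaperonin CCT, prefoldin and arl2 list were at 10 TPM or above in both libraries, 9 of them at 100 or above. That list was led by cct6a at 330 and 431 TPM, an entry of cct2 (ENSDARG00000104674) at 267 and 332 TPM and another of cct2 (ENSDARG00000087206) at 238 and 231 TPM. The second cct2 entry had only 151 and 164 reads, against 1743 and 2695 for the first. Its TPM thus rests on a far shorter effective length.

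Acetylation of alpha tubulin, a mark of stable and ciliary microtubules, is written by atat1 and removed by hdac6. The gene atat1 was at 6.48 and 2.63 TPM, from 96 and 51 reads. The gene hdac6 was at 11.7 and 6.74 TPM, the higher in each library. Its reads numbered 237 and 241, and the difference in TPM came with effective lengths of 2261 and 3185 bases, the lengths RSEM gave for its mix of isoforms. A second tubulin deacetylase, sirt2, was at 26.5 and 26.3 TPM.

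Of the genes for removal of the last tyrosine of alpha tubulin, vash2 was the highest. The gene vash2 encodes a vasohibin, the peptidase that cuts this residue together with its partner Svbp. It was at 118.7 and 65.6 TPM, a mean of 92.1 ± 37.6 TPM. The paralogue VASH1 was at 10.3 and 5.40 TPM, and the ratio of vash2 to VASH1 was 11.6 in replicate 1 and 12.1 in replicate 2. Both vasohibins were lower in replicate 2, while their order and ratio were alike. The partner gene svbp was at 27.9 and 24.4 TPM. The ligase that puts the tyrosine back is encoded by ttl, which has no number in its symbol and is not a member. It was chosen after its values were seen and was at 5.63 and 3.50 TPM. Another tyrosine-removing peptidase, MATCAP1, was at 4.28 and 6.85 TPM.

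The tubulin tyrosine ligase-like enzymes add glutamate or glycine to tubulin tails. Of these 10 genes, 9 (90%) were detected at 1 TPM in both libraries, beside 66.1% of all genes in the series table. At 10 TPM or above stood 3 (30%), beside 31.9% of all genes. The first was ttll6, a glutamylase that lengthens side chains and that zebrafish cilia need for normal motility, at 70.2 and 46.9 TPM. The second was ttll9, a glutamylase of motile cilia in mice, at 38.4 and 24.9 TPM. The third was ttll1, the catalytic chain of the tubulin polyglutamylase complex, at 19.6 and 25.4 TPM. The gene ttll6 exceeded ttll9 without overlap, whereas ttll9 and ttll1 changed places between libraries.

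The remaining glutamylases formed a lower tier. The gene ttll4, which starts side chains in mice, was at 8.58 and 8.51 TPM. The gene ttll5, another initiating enzyme of mice, was at 2.81 and 1.93 TPM. The elongating enzymes ttll7 and ttll11 were at 6.92 and 3.71 TPM and at 6.89 and 3.25 TPM. The family member ttll12 was at 9.82 and 6.92 TPM. Of the glycylases, ttll3, which places the first glycine, was at 6.90 and 4.00 TPM, and ttll10, which extends glycine chains in mice, was at 0.97 and 0.36 TPM from 10 and 4 reads. The glutamylases ttll6, ttll9 and ttll1 were thus each above the glycylases in both libraries.

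Partners of the polyglutamylase complex and other modifiers were read as a list of 9 symbols, of which 6 matched a gene. All 6 were at 1 TPM or above in both libraries, 4 at 10 or above and 1 at 100 or above. TPGS1, a non-catalytic chain of the complex, was at 130.0 and 130.4 TPM and another, tpgs2, at 10.6 and 11.0 TPM. The gene nicn1 was at 5.48 and 1.22 TPM. The gene cep41, which is needed for glutamylation of ciliary tubulin in zebrafish, was at 21.4 and 18.1 TPM. TPGS1 thus stood above every enzyme of the ttll family in both libraries, and above its catalytic partner ttll1.

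Glutamate is removed by the cytosolic carboxypeptidases of the agbl family. The gene agbl5, whose product takes away the glutamate at the branch point of a side chain, was the highest of the 5 entries at 23.3 and 15.6 TPM. The 2 entries named agbl4 were at 6.82 and 6.19 TPM (ENSDARG00000110838) and at 4.39 and 4.24 TPM (ENSDARG00000068050), from 26 and 29 reads and from 30 and 36 reads. The gene agbl2 was at 5.69 and 3.32 TPM and agbl1 at 0.84 and 0.26 TPM. Summed over members, the carboxypeptidases stood at 41.1 and 29.6 TPM and the ttll enzymes at 171 and 126 TPM.

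Katanin is an enzyme that cuts microtubules, and the 4 katanin genes described here were all detected in both libraries. The catalytic relatives katnal1 and katnal2 were at 15.6 and 11.3 TPM and at 12.6 and 11.3 TPM, and katnbl1 was at 11.6 and 10.9 TPM. The catalytic chain gene katna1 was at 5.56 and 6.11 TPM, below these 3 without overlap. The katanin-interacting gene katnip, which the authors' table lists under another symbol, was at 10.4 and 10.3 TPM.

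Stathmins bind free tubulin dimers and favour disassembly. Of the 7 stathmin genes, stmn1b and stmn1a were the 2 detected in both libraries (28.6%, beside 66.1% of all genes in the series table). The gene stmn1b was at 87.7 and 53.5 TPM and stmn1a at 11.9 and 11.3 TPM, and stmn1b exceeded stmn1a without overlap. The other 5, whose orthologs are mostly neuronal in mammals, were low. The gene stmn4 was at 4.95 TPM from 60 reads and 0.44 TPM from 4 reads, and stmn2a was at 1.34 TPM from 22 reads and 0.10 TPM from 2 reads. The genes stmn4l and stmn2b were at 1.77 and 0.08 TPM and at 0.93 and 0.23 TPM. The TPM of stmn4l differed more than its reads, which numbered 14 and 3, because its effective length was 887 bases in replicate 1 and 3316 in replicate 2. The gene stmn3 was at 0.41 TPM from 3 reads in replicate 1 and had 0 reads in replicate 2, where 3 reads would be 0.147 TPM. All 5 were higher in replicate 1, with a summed 9.40 TPM there and 0.85 TPM in replicate 2. The exact 95% Poisson interval of the 4 reads of stmn4 ran from 1.09 to 10.2 reads, which covers counting error only.

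Proteins that bind microtubules were read as context. Of 35 entries matched for 34 of 38 listed symbols, 27 were detected in both libraries, 18 were at 10 TPM or above and none was at 100 in both. Highest were clasp2, which stabilises plus ends, at 106.6 and 64.5 TPM, the end-binding gene mapre1b at 82.3 and 83.9 TPM and map1ab at 86.7 and 48.7 TPM. Of 4 listed genes known from neurons, map2 was at 29.4 and 31.8 TPM, while mapta, maptb and map1b were at 2.05 and 1.18, at 0.93 and 0.09, and at 0.76 and 0.03 TPM. These 4 were chosen after their values were seen and do not stand for the list. It also held dclk1a at 26.55 and 17.03 TPM and map6a at 1.86 and 0.64 TPM.

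The libraries were then set side by side. Each ratio is the log2 of TPM + 1 in replicate 2 over that in replicate 1, after subtraction of -0.25, the median over the 15125 genes with a mean of at least 1 TPM. Of the 48 members at that level, 26 were above 0 and 22 below, with a median of 0.11. At least 2-fold higher in replicate 2 were 2 members (4.17%, beside 3.56% of all genes), and at least 2-fold lower was 1 (2.08%, beside 5.22%). The shares are from few members and lie near or below those of all genes.

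The 2 higher members were alpha tubulins. For tuba1b the log2 ratio was 1.53, from 169 and 530 expected counts, and for tuba8l3 it was 1.22, from 39 and 109 counts. Counts of tuba1b were not whole in either library. Those of tuba8l3 were 39 and 108.98, not whole in replicate 2 only, and those of its neighbour tuba8l5 were 0 and 1.02. The sum of tuba1a, tuba1b and tuba1c, within which a read divided among these 3 stays, had a ratio of 0.66. The lower member was stmn4, with a ratio of -1.79.

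**Figure D3:**
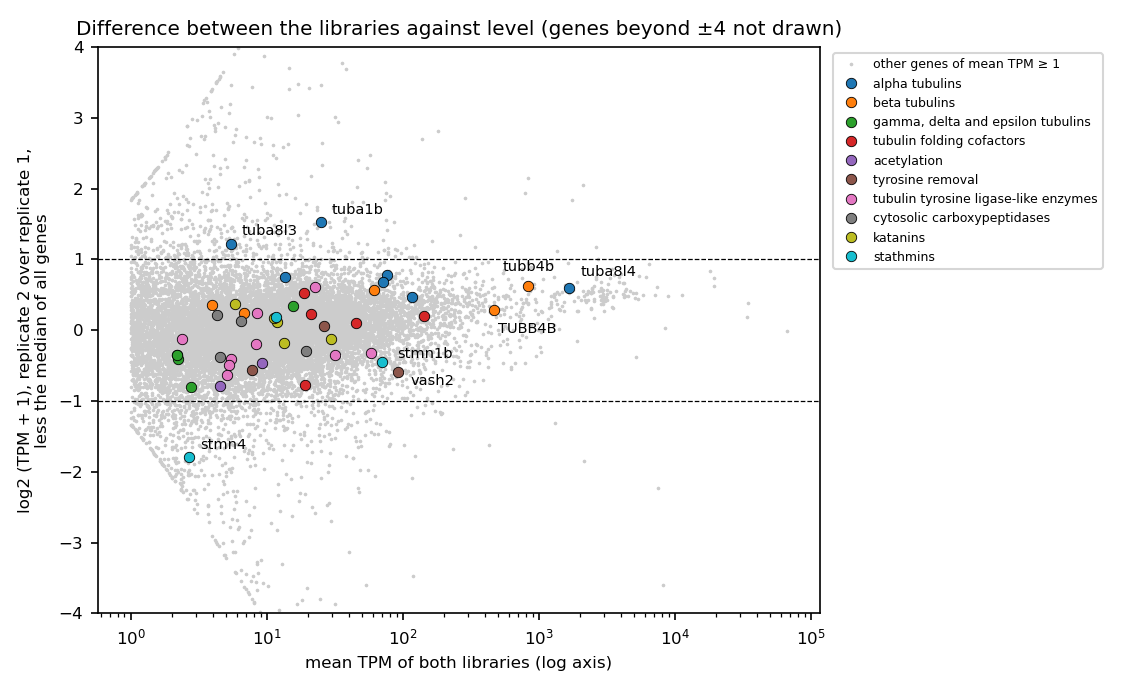
Log2 ratio of TPM + 1, replicate 2 over replicate 1 and less the median of all genes, against the mean TPM on a log axis, for the 48 members with a mean of at least 1 TPM (coloured by class) and other such genes (grey). Genes beyond the limits of the vertical axis are not drawn. Dashed lines mark a 2-fold ratio, beyond which lie tuba1b, tuba8l3 and stmn4.

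The ratios were then read by class. Of 8 alpha tubulins compared, 7 were above the median of all genes in replicate 2, with a class median of 0.72, and tuba2 was below. All 5 beta tubulins compared were above, with a median of 0.35. Of the ttll enzymes, 7 of 9 were below, with a median of -0.32. Also below were 3 of 4 gamma, delta and epsilon tubulins (median -0.38) and both acetylation enzymes (median -0.63). Of the 3 genes for tyrosine removal (median -0.56), both vasohibins were below and svbp was above, at 0.07. From counts not divided by length, hdac6 and ttll4 were both at -0.02 with CPM (counts over the library total), beside -0.46 and 0.24 with TPM. With DESeq2 size factors they were at 0.0162 and 0.0179. The median of all genes was not subtracted there and was 0.0220, so both members lay below it. The class medians kept their signs under CPM, DESeq2 and TMM scaling. All of these divide the same counts by a constant for each library, so they are not separate checks. Folding cofactors had a median of 0.20, katanins of 0.11 and carboxypeptidases of -0.08. Nearly all of these ratios were below 2-fold, and with 1 library on each side they have no replicate check.

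Level itself went with the ratio across all genes. Of all genes with a mean of at least 100 TPM, 73.4% were above 0 and the median was 0.28, and all 5 members at that level were above, with a median of 0.47. Between 10 and 100 TPM the medians were 0.14 for 22 members and 0.04 for all genes. Between 1 and 10 TPM they were -0.35 for 21 members and -0.09 for all genes. There 7 members were above and 14 below, beside 43.1% of all genes above. Single members departed from this order by level. Among the tubulins between 1 and 10 TPM, tuba8l3, tubb5 and tubb6 were above 0, at 1.22, 0.24 and 0.35. In the same range tuba2, tubd1 and both tube1 entries were below, at -0.34, -0.35, -0.80 and -0.41. Between 10 and 100 TPM, 14 of the 22 members were above and 8 below, beside 54.7% of all genes above. Those below included vash2 and ttll6, at means of 92.1 and 58.5 TPM, with ratios of -0.59 and -0.32. The part of level in the ratios of the classes was not tested.

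Markers of cell types are given beside these ratios. The pineal and photoreceptor markers had a median ratio of -5.58 and a range of -6.80 to -2.49 over 9 genes, and no marker was at 0. The neuron markers had a median of -0.91 over 8 genes, 7 of them higher in replicate 1 and map2 higher in replicate 2. The stathmins compared had ratios of -1.79 for stmn4, -0.45 for stmn1b and 0.19 for stmn1a. The motile cilia markers had a median of -0.12 and the epithelial markers of 0.35, both within 2-fold. Erythrocyte markers summed to 1762 TPM in replicate 1 and 5919 TPM in replicate 2 (median ratio 0.95), and macrophage and endothelial markers had median ratios of 0.48 and 0.42. All markers of these last 3 lists were above 0. The part of other cells in the ratios of stathmins, vasohibins and glutamylases was not tested.

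**Figure D4:**
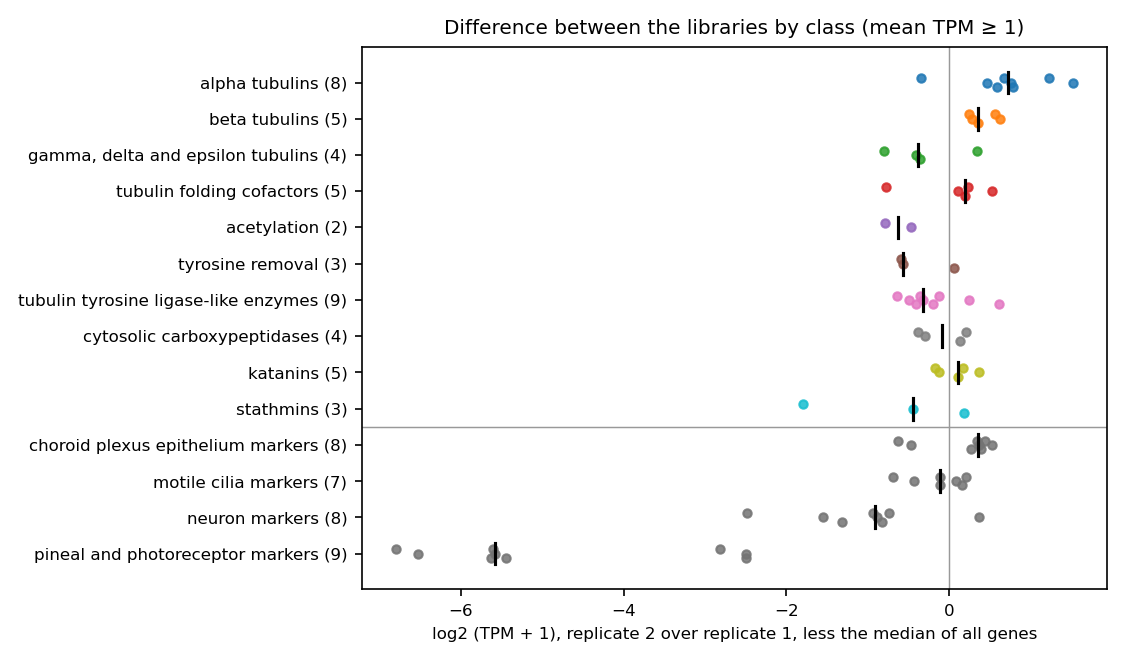
Log2 ratio of TPM + 1, replicate 2 over replicate 1 and less the median of all genes, for each member with a mean of at least 1 TPM by class (above the line) and for 4 lists of cell type markers (below it). Points are genes, black bars are medians and the number of genes is in brackets, and the pineal markers reach -6.80 while members lie between -1.79 and 1.53.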

How the data were processed

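Total RNA of 2 pools of forebrain choroid plexus was sequenced. The submitters' processing notes name genome build GRCz11 and the tools STAR and RSEM, version 1.3.3; the annotation is not stated there. For each library the authors deposited expected counts, TPM and FPKM, per the file headers, given per gene with transcript lengths. FPKM were not used. A series table deposited by the authors gave symbols and a TPM within 0.005 of the mean of both libraries, and was used for symbols. Symbols of all 58 members were found in the RefSeq table of GRCz12tu, which was used for synonyms and gene order.

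Ratios, sums and shares were computed with Python 3.11.15, pandas 2.3.3 and numpy 2.4.6, on TPM with a pseudocount of 1 for ratios. A difference of over 0.001 from a whole number marked a count as not whole. Counts rounded to whole numbers gave scaling factors with edgeR 4.0.16 and DESeq2 1.42.0 (R 4.3.3) for alternatives, and no test was run. The ratio procedure was tested on simulated counts with known changes. The changed genes all had a mean of at least 10 TPM and true changes above 2-fold. Changes in lower genes, and smaller changes, were not covered. Both simulated libraries had the same effective length for each gene and no difference in cell mix. The simulation therefore does not bear on such differences between the real libraries. Members, lists and thresholds were chosen with earlier results of these data known. Values are given for every member at a mean of 10 TPM, the top 3 of each class, members 2-fold apart, members at 0 and the top 3 of each context list; others were added. PCR reads carried no known molecular identifiers. The values of 1 member are not reported here, although it is counted in totals and class medians. No sequence was used here.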

Additional observations from a re-analysis of the deposited data

How the results depend on the processing

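The count of detected members stayed within 1.5 times of 47 under all 5 alternatives, from 42 at 2 TPM to 50 with replicate 1 alone, and was 47 with replicate 2 alone. The summed alpha and beta TPM and the share of tubb4b moved by no more than 1 SD with CPM and with the 2 further tubulins. With a library left out, which with 2 libraries gives the value of the other and shows no stability, they ran from 1720 to 2207 TPM, from 1252 to 1485 TPM and from 57.5% to 62.7%. The share of tuba8l4 ran from 83.6% to 84.7% and was 82.8% with CPM (counts per library total, not divided by length), a move of over 1 SD. The median ratio of the members changed sign with no filter on level, to -0.27 over 58 members, where the median removed from all genes was -0.09 and the 10 lowest members entered. It stayed positive under the other 6 alternatives. Members 2-fold apart numbered 3, and again 3 with CPM, TMM and DESeq2 scaling. These 3 scalings divide the same counts by a constant for each library, so here and for the median ratio they are close to 1 alternative. Members 2-fold apart numbered 4 with TPM + 0.1 and with no filter, 2 of them lower in replicate 2 in each case. At a mean of at least 5 TPM they numbered 2, none of them lower. With TPM + 5, where low genes are drawn together, the number was 1. No paired analysis was possible because both libraries belong to 1 group. The ratio between replicates cannot be taken with a library left out. The search for further tubulins by protein identity was not run, since no protein table was used here. Reads limit the genes below 1 TPM, where 3 reads amount to 0.0437 to 0.414 TPM in the members concerned.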
